A study of Homo sapiens with 12 samples.

Results

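NRF2 and 9 of the antioxidant genes it is known to control or to work beside were followed in MCF10-A, an immortal but non-tumorigenic line of human mammary epithelial cells. The 10 genes were NFE2L2, which encodes NRF2, and NQO1, HMOX1, GCLM, GCLC, TXNRD1, SRXN1, SLC7A11, SOD1 and SOD2. They were taken by name from the 57133 gene names of the count files, and all 10 were among the 14504 genes with enough counts to be tested. Every culture carried a transgene under a doxycycline-inducible promoter, and every culture received 50 ng/ml doxycycline from 20 hours after seeding. The 4 groups were p21 (mVenus fused to p21), p16 with Torin2 (mVenus fused to p16, with 100 nM Torin2 added 24 hours after doxycycline), p16 (the same fusion with the solvent DMSO) and mVenus (the yellow fluorescent protein alone). Whether the p21 and mVenus cultures also received DMSO is not reported here. All groups had a medium interval of 48 hours. Both p16 and p21 inhibit cyclin-dependent kinases and arrest the cell cycle, and Torin2 inhibits the kinase mTOR. Cells were collected at day 5, and 3 biological replicates a group are stated, without saying whether these were separate inductions or whether a line is 1 clone. The p-values therefore measure the spread between these libraries, which may be technical.

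NRF2 is a transcription factor that the adaptor KEAP1 marks for degradation in unstressed cells. Oxidants and electrophiles modify KEAP1, so that NRF2 builds up, pairs with a small MAF protein and binds antioxidant response elements beside genes for glutathione synthesis, the thioredoxin system, quinone reduction and haem breakdown. Since this control acts on the protein, the NFE2L2 transcript alone does not report NRF2 activity. BACH1 competes with NRF2 for the same elements and is best known as a repressor of HMOX1. SOD1, in the cytosol, and SOD2, in mitochondria, convert superoxide to hydrogen peroxide, and SOD2 is also a well-known target of NF-kB.

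Libraries held 13168749 to 18321114 assigned counts. Levels are CPM, counts scaled to a common library total after TMM normalisation, and values are mean ± SD over 3 libraries unless a library is named. CDKN1A, the gene of p21, stood at 888.6 ± 16.5 CPM in p21, 259.5 ± 17.0 CPM in p16 with Torin2, 570.3 ± 30.1 CPM in p16 and 712.1 ± 13.0 CPM in mVenus. Its rise in p21 over mVenus was only 1.25-fold (log2 fold change 0.32 ± 0.04 SE, edgeR adjusted p = 2.08e-06). Reads of the transgene and of the cells' own gene were not separated, so this is a weak check of the p21 induction. CDKN2A, the gene of p16, had 0 counts in each of the 12 libraries, so p16 here means the libraries labelled p16, with no check from the induced gene. The summed level of 6 epithelial markers was 4138 to 4281 CPM in p21, 2461 to 2549 CPM in p16 with Torin2, 7187 to 7516 CPM in p16 and 2456 to 2550 CPM in mVenus. KRT5 was a large part of that sum, and single markers took other orders: TP63 averaged 4.45 ± 0.596 CPM in p21, 77.9 ± 6.36 CPM in p16 with Torin2, 37.3 ± 2.16 CPM in p16 and 5.18 ± 0.453 CPM in mVenus. Of 4 leukocyte markers CD3E and TYROBP had 0 CPM in every library, and the summed level, nearly all CD14, was 20.9 to 24.4 CPM in p21, 13.5 to 17.0 CPM in p16 with Torin2, 34.6 to 38.5 CPM in p16 and 12.8 to 17.6 CPM in mVenus. Summed endothelial markers were 1.47 to 2.05 CPM in p21, 1.87 to 2.95 CPM in p16 with Torin2, 4.24 to 4.68 CPM in p16 and 2.83 to 3.0 CPM in mVenus. Summed fibroblast markers, mostly COL1A1, reached 3.57 to 5.51 CPM in p21, 2.78 to 3.48 CPM in p16 with Torin2, 3.79 to 4.55 CPM in p16 and 8.75 to 10.7 CPM in mVenus. These marker levels differed between the same groups as the antioxidant genes, and their part in the results was not tested.

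**Figure D1:**
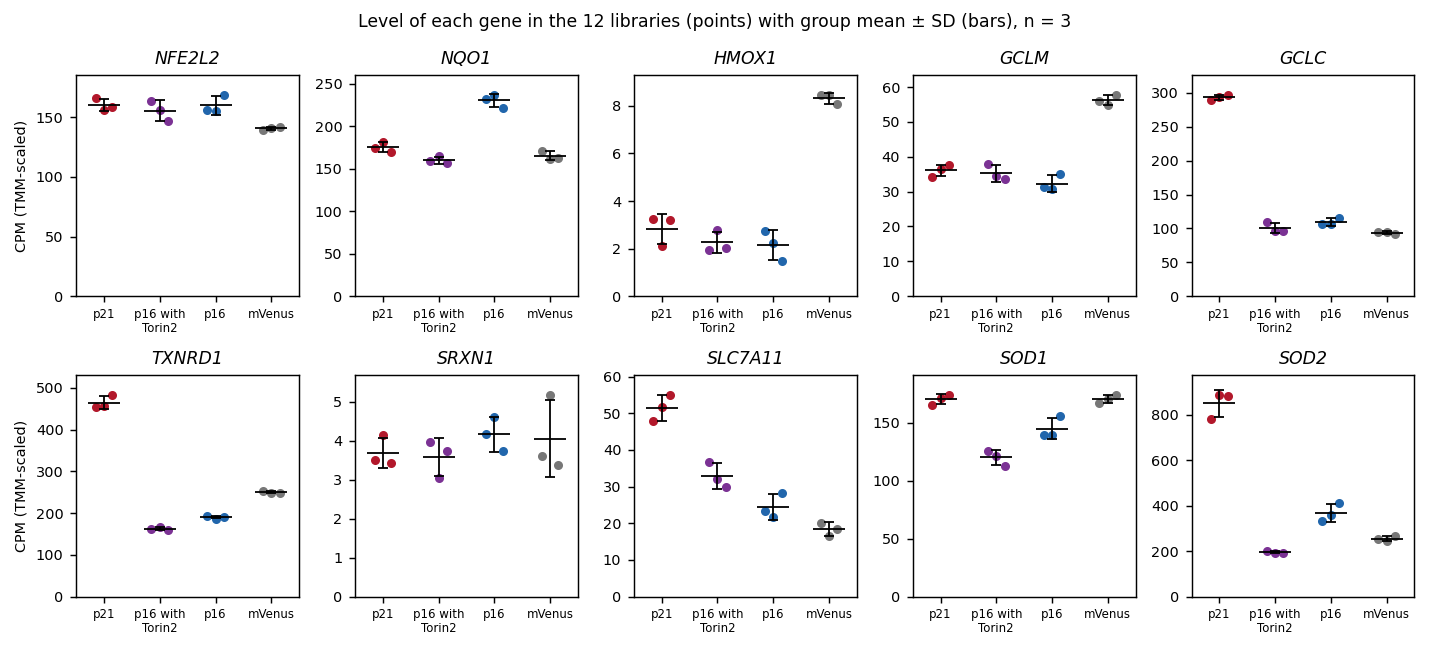
Level of each of the 10 genes in CPM (vertical axes, each starting at 0) in the 3 libraries of every group (points), with group mean ± SD as bars. GCLC, TXNRD1, SLC7A11 and SOD2 are highest in p21, HMOX1 and GCLM are highest in mVenus, NQO1 is highest in p16, and NFE2L2 and SRXN1 span the narrowest range.

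The transcript of NRF2 itself moved little. NFE2L2 (chromosome 2, 177227595 to 177392697, minus strand; all gene coordinates are GENCODE 29 on GRCh38) stood at 165.7, 155.7 and 158.5 CPM in p21, 163.6, 156.0 and 146.7 CPM in p16 with Torin2, 155.5, 154.9 and 168.7 CPM in p16, and 139.3, 141.1 and 141.7 CPM in mVenus. Each of the 9 p16 and p21 libraries lay above each mVenus library, and the 3 groups that expressed p16 or p21 overlapped one another. NFE2L2 rose 1.14-fold in p21 over mVenus (log2 fold change 0.18 ± 0.04 SE, edgeR adjusted p = 0.00148) and 1.13-fold in p16 over mVenus (0.18 ± 0.04, edgeR adjusted p = 0.00136). With Torin2 it rose by 0.14 ± 0.04 over mVenus (edgeR adjusted p = 0.00786), a call that was lost without replicate 1 of p16 with Torin2 (0.11, edgeR adjusted p = 0.0541). The difference was -0.04 ± 0.04 between p16 with Torin2 and p16, and 0.00 ± 0.04 between p21 and p16, with edgeR adjusted p of 0.475 and 0.976. Of its exonic bases 20.9% overlap other genes, whose reads the counting left unassigned.

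Other genes that set NRF2 activity moved in both directions. A list of 14 control genes, with KEAP1, its ubiquitin ligase, the MAF partners and the BACH repressors, had 13 tested genes. Of these, 5 rose and 2 fell in p21 over mVenus, 7 rose and 2 fell in p16 over mVenus, and 7 rose and 5 fell with Torin2 over p16. These are 7, 9 and 12 called of 13, where 56.4%, 63.7% and 59.3% of all tested genes were called in the same comparisons (28.2% higher and 28.3% lower, 30.9% and 32.8%, and 30.3% and 29%). KEAP1 averaged 83.2 ± 3.20 CPM in p21, 91.7 ± 6.92 CPM in p16 with Torin2, 74.5 ± 3.16 CPM in p16 and 81.4 ± 5.93 CPM in mVenus. It rose with Torin2 over p16 (0.30 ± 0.06, edgeR adjusted p = 0.000189), and its differences of p21 and p16 from mVenus were 0.04 ± 0.06 and -0.12 ± 0.06, which did not pass the test. NFE2L1, a relative of NRF2 known for driving proteasome genes, rose 1.92-fold in p21 and 1.77-fold in p16 over mVenus, and fell 1.57-fold with Torin2 against p16 (edgeR adjusted p = 3.63e-13). Its level was 1287 ± 11 CPM in p21, 753.6 ± 8.70 CPM in p16 with Torin2, 1186 ± 38.4 CPM in p16 and 669.1 ± 14.2 CPM in mVenus.

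Both BACH genes were highest with Torin2. BACH1 had 78.2, 72.7 and 68.5 CPM in p16 with Torin2, against 53.1, 53.7 and 58.5 CPM in p16, with no overlap, and rose by 0.41 ± 0.06 (edgeR adjusted p = 5.68e-06). In p16 over mVenus it rose by 0.40 ± 0.06, mVenus having 42.5, 38.9 and 43.6 CPM. BACH2, a related repressor studied mostly in lymphocytes, rose 2.96-fold, to 7.46 ± 0.620 CPM with Torin2 against 2.52 ± 0.259 CPM in p16. MAFG, a small MAF partner, rose by 0.32 ± 0.06 with Torin2 over p16, where it averaged 68.9 ± 2.23 CPM with Torin2 and 55.0 ± 5.82 CPM in p16. SQSTM1, an autophagy receptor that binds KEAP1, was listed at 0.850 ± 0.176 CPM in p21, 0.370 ± 0.211 CPM in p16 with Torin2, 0.489 ± 0.442 CPM in p16 and 0.385 ± 0.125 CPM in mVenus. Whether such low values come from the counting or from the cells was not tested. Its only call, a rise of 1.18 ± 0.49 in p21 over mVenus (edgeR adjusted p = 0.0474), was lost without mVenus replicate 1 (0.96, edgeR adjusted p = 0.166) or 3 (1.2, edgeR adjusted p = 0.0971), without replicate 3 of p16 with Torin2 (1.18, edgeR adjusted p = 0.0543), and without p21 replicate 1 (1.27, edgeR adjusted p = 0.0599), 2 (0.99, edgeR adjusted p = 0.164) or 3 (1.26, edgeR adjusted p = 0.0678).

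Transcripts of SLC7A11, for cystine import, and of GCLC, for glutathione synthesis, were highest in p21. SLC7A11 (chromosome 4, 138164097 to 138242349, minus strand), the cystine-carrying subunit of the exchanger that supplies cysteine for glutathione, had 48.0, 51.6 and 55.0 CPM in p21, 36.7, 32.0 and 29.9 CPM in p16 with Torin2, 23.3, 21.7 and 28.3 CPM in p16, and 20.2, 16.6 and 18.5 CPM in mVenus. None of these groups overlapped a neighbour in that order. It rose 2.78-fold in p21 over mVenus (1.47 ± 0.09, edgeR adjusted p = 1.94e-11), by 0.39 ± 0.10 in p16 over mVenus (edgeR adjusted p = 0.00196), and by 0.43 ± 0.09 with Torin2 over p16 (edgeR adjusted p = 0.000537). SLC7A11 was the one gene of the 10 that rose with Torin2 over p16. Its partner SLC3A2, the heavy chain that several amino acid exchangers share, averaged 686.6 ± 25.5 CPM in p21, 562.1 ± 11.3 CPM in p16 with Torin2, 407.5 ± 7.44 CPM in p16 and 513.4 ± 15.3 CPM in mVenus. SLC3A2 rose by 0.42 ± 0.03 in p21 over mVenus and by 0.46 ± 0.04 with Torin2 over p16, but fell by 0.33 in p16 against mVenus (SE 0.04, edgeR adjusted p = 6.05e-08).

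The 2 subunits of glutamate-cysteine ligase, the rate-limiting enzyme of glutathione synthesis, moved in opposite directions in p21 and in p16 against mVenus. GCLC (chromosome 6, 53497341 to 53616970, minus strand), the catalytic subunit, had 290.3, 293.6 and 297.5 CPM in p21, 109.0, 96.8 and 96.1 CPM in p16 with Torin2, 106.6, 106.5 and 115.9 CPM in p16, and 94.9, 95.1 and 91.9 CPM in mVenus. The p21 libraries stood apart from all others, and p16 and p16 with Torin2 overlapped. GCLC rose 3.13-fold in p21 over mVenus (1.65 ± 0.05, edgeR adjusted p = 4.85e-17) and by 0.22 ± 0.05 in p16 over mVenus (edgeR adjusted p = 0.000434). GCLM (chromosome 1, 93885205 to 93909456, minus strand), the modifier subunit that makes the enzyme more efficient, had 34.3, 36.5 and 37.6 CPM in p21, 38.0, 34.4 and 33.5 CPM in p16 with Torin2, 31.2, 30.7 and 35.0 CPM in p16, and 56.1, 54.9 and 57.8 CPM in mVenus. All 9 p16 and p21 libraries lay below all 3 mVenus libraries. GCLM fell by 0.64 ± 0.06 in p21 (edgeR adjusted p = 1.15e-08), by 0.80 ± 0.06 in p16 (edgeR adjusted p = 2.87e-10) and by 0.67 ± 0.06 with Torin2 (edgeR adjusted p = 3.24e-09), each against mVenus.

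The GCLC and GCLM promoters are shown because these subunits went opposite ways in those comparisons. Both sequences are RefSeq windows on GRCh38.p14, minus strand, from 250 bases before to 50 bases after the annotated start. Capitals mark matches to TGACNNNGC, the core of the antioxidant response element, which was searched on both strands (GCNNNGTCA on the other).
GCLM (chr1:93909381-93909680): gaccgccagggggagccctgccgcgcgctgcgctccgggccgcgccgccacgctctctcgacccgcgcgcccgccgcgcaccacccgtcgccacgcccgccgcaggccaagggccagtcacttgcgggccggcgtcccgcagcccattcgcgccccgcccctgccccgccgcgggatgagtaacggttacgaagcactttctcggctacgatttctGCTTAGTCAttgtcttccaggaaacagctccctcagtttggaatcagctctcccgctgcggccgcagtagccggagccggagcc
GCLC (chr6:53545052-53545351): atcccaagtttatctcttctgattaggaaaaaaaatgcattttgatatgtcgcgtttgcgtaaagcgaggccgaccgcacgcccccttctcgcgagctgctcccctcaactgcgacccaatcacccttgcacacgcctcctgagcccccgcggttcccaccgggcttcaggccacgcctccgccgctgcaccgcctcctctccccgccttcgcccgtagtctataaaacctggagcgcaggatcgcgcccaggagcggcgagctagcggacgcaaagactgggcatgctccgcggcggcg
The GCLM window holds 1 match, GCTTAGTCA, which begins 34 bases before the start, and the GCLC window holds none. A match was present in 4687 of 35116 promoters in the RefSeq table (13.3%), so its presence is a description of the letters only. Bases outside these windows were not searched, so a window without a match does not show that the gene lacks an element elsewhere. Whether a match bears on the direction of either gene was not tested. Promoters were listed for 7 of the 10 genes, with 12 starts, and 3 of these 12 windows held a match, in GCLM and in both starts of TXNRD1. HMOX1, SLC7A11 and SOD1 had no entry.

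The ratio of the subunits within each library made the shift visible without regard to library scaling. Taken per exonic base not shared with another gene, GCLC stood to GCLM at 5.65, 5.37 and 5.29 in p21, 1.91, 1.88 and 1.92 in p16 with Torin2, 2.28, 2.32 and 2.21 in p16, and 1.13, 1.16 and 1.06 in mVenus. No libraries of different groups overlapped. The mean ratio in p21 was 4.87 times that in mVenus and 2.39 times that in p16, and that in p16 was 2.03 times that in mVenus. The two-sided exact permutation test gave p = 0.1 for each, the smallest that 3 against 3 libraries allow. A ratio shows unequal change and not which subunit moved.

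**Figure D2:**
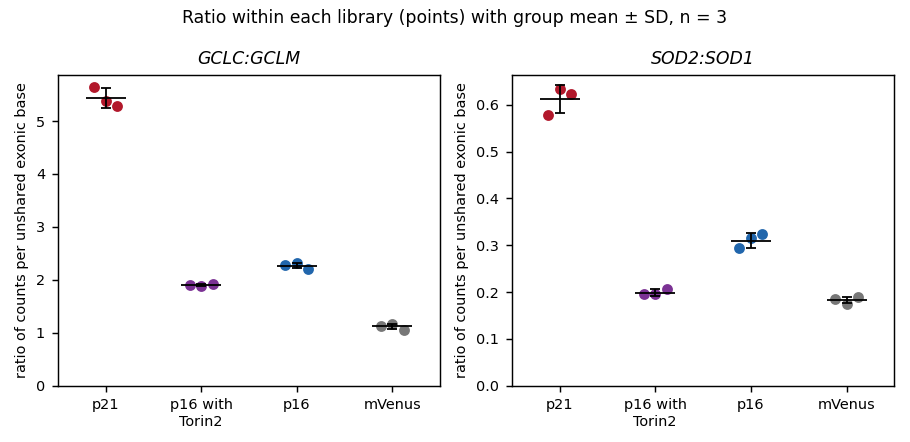
Ratio of counts per unshared exonic base for GCLC over GCLM (left) and SOD2 over SOD1 (right) in each library (points), with group mean ± SD as bars and axes from 0. The p21 libraries lie highest in both panels, at means of 5.44 and 0.612, against 1.12 and 0.183 in mVenus.

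Among 7 other tested genes of glutathione synthesis and recycling, 3 rose and 1 fell in p21 over mVenus, 3 rose and 2 fell in p16 over mVenus, and 1 rose and 3 fell with Torin2 over p16. That is 4, 5 and 4 called of 7, near the 56.4%, 63.7% and 59.3% of all tested genes. GSS, which joins glycine in the last step of synthesis, averaged 98.5 ± 5.13 CPM in p21, 92.0 ± 2.07 CPM in p16 with Torin2, 143.9 ± 10.0 CPM in p16 and 90.8 ± 1.32 CPM in mVenus. It rose by 0.67 ± 0.05 in p16 over mVenus and fell by 0.65 ± 0.05 with Torin2 against p16. GSR, glutathione reductase, fell by 0.34 ± 0.05 with Torin2 against p16 (edgeR adjusted p = 2.94e-06), where it averaged 64.8 ± 1.09 CPM with Torin2 and 82.2 ± 4.64 CPM in p16. CHAC1, an enzyme that breaks glutathione down and a known target of ATF4, had 15.2, 14.5 and 18.4 CPM in p21, 2.61, 1.75 and 2.23 CPM in p16 with Torin2, 2.12, 2.96 and 2.10 CPM in p16, and 3.30, 2.85 and 3.70 CPM in mVenus. It rose 4.83-fold in p21 over mVenus (2.27 ± 0.14, edgeR adjusted p = 2.7e-11), a comparison in which 56.4% of all tested genes were called. Any link to the rises of GCLC and SLC7A11 there was not tested.

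TXNRD1, thioredoxin reductase, rose in p21 and fell in the p16 groups. TXNRD1 (chromosome 12, 104215779 to 104350305, plus strand) had 455.3, 456.2 and 483.2 CPM in p21, 160.9, 166.6 and 160.3 CPM in p16 with Torin2, 192.5, 186.9 and 190.8 CPM in p16, and 253.8, 248.1 and 248.6 CPM in mVenus. No groups overlapped, and mVenus lay between p21 and p16. It rose 1.86-fold in p21 over mVenus (0.89 ± 0.03, edgeR adjusted p = 7.36e-15) and fell by 0.40 ± 0.04 in p16 against mVenus (edgeR adjusted p = 4.43e-09). With Torin2 it fell by a further 0.22 ± 0.04 against p16 (edgeR adjusted p = 2.01e-05), and p21 exceeded p16 by 1.29 ± 0.04 (edgeR adjusted p = 4.3e-17).

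Both TXNRD1 promoter windows are shown because TXNRD1 rose in p21 while GCLM, the other gene with a match, fell there. They are RefSeq windows on GRCh38.p14, plus strand, with capitals marking the same motif.
TXNRD1, upstream start (chr12:104215529-104215828): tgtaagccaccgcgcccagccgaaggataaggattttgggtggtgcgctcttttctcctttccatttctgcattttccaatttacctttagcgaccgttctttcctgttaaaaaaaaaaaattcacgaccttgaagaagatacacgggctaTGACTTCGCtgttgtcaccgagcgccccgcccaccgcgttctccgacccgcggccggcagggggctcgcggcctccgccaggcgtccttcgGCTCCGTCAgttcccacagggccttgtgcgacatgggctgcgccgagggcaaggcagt
TXNRD1, downstream start (chr12:104286782-104287081): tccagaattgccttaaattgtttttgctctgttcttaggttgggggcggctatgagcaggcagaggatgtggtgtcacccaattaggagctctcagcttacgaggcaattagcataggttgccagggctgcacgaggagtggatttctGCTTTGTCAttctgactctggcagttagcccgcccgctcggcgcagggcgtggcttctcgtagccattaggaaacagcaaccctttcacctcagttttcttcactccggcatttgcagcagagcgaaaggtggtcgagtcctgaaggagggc
The upstream window holds TGACTTCGC 99 bases and GCTCCGTCA 8 bases before the start, and the downstream window holds GCTTTGTCA 102 bases before the start. Counts were summed by gene name, so which start was used cannot be told from them.

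Other genes of the thioredoxin system moved in both directions. Of 13 tested genes, 5 rose and 3 fell in p21 over mVenus, 8 rose and 4 fell in p16 over mVenus, and 2 rose and 7 fell with Torin2 over p16. The called genes were 8, 12 and 9 of 13, beside 56.4%, 63.7% and 59.3% of all tested genes. TXN, the thioredoxin that TXNRD1 reduces, averaged 190.5 ± 2.33 CPM in p21, 269.4 ± 4.38 CPM in p16 with Torin2, 232.9 ± 4.71 CPM in p16 and 204.4 ± 2.35 CPM in mVenus, and it rose by 0.21 ± 0.03 with Torin2 over p16. PRDX1, a peroxiredoxin that thioredoxin recharges, rose by 0.26 ± 0.03 in p16 over mVenus and fell by 0.40 ± 0.04 with Torin2 against p16, and was 0.00 ± 0.04 apart between p21 and mVenus (edgeR adjusted p = 0.971). TXNIP, which binds and inhibits thioredoxin, was raised in every group with p16 or p21: 1819, 1786 and 1828 CPM in p21, 2133, 2174 and 2187 CPM in p16 with Torin2, and 1537, 1530 and 1570 CPM in p16, against 582.7, 573.1 and 617.4 CPM in mVenus. Its rise was 3.06-fold in p21 (1.61 ± 0.03, edgeR adjusted p = 4.14e-19), 3.66-fold with Torin2 and 2.61-fold in p16 over mVenus.

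SRXN1 (chromosome 20, 646615 to 653370, minus strand), sulfiredoxin, which repairs overoxidised peroxiredoxins, was not called in any comparison. It had 3.52, 4.15 and 3.44 CPM in p21, 3.97, 3.04 and 3.74 CPM in p16 with Torin2, 4.18, 4.61 and 3.73 CPM in p16, and 3.62, 5.18 and 3.38 CPM in mVenus, and all groups overlapped. Its log2 fold changes were between -0.22 ± 0.18 and 0.06 ± 0.17, with edgeR adjusted p of 0.303 to 0.767. The annotation shares 85.0% of its exonic bases with AL121758.1, so its 47 to 71 counts a library came from 406 unshared bases. Its SE of 0.17 to 0.18 was near the change of 0.18 seen for NFE2L2 in p16 and in p21 over mVenus. A change of that size could therefore have been missed, and the smallest change detectable for SRXN1 was not worked out.

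NQO1 stood higher in p16 than in any other group. NQO1 (chromosome 16, 69706996 to 69726951, minus strand), a quinone reductase often used as a readout of NRF2 activity, had 174.6, 181.9 and 169.8 CPM in p21, 159.4, 164.7 and 156.6 CPM in p16 with Torin2, 232.6, 237.3 and 222.1 CPM in p16, and 171.3, 161.9 and 162.6 CPM in mVenus. The p16 libraries stood above all others, while mVenus overlapped both p21 and p16 with Torin2. NQO1 rose 1.40-fold in p16 over mVenus (0.48 ± 0.04, edgeR adjusted p = 1.34e-09), fell 1.44-fold with Torin2 against p16 (-0.53 ± 0.04, edgeR adjusted p = 5.04e-10), and fell by 0.39 ± 0.04 in p21 against p16. Its difference of 0.09 ± 0.04 between p21 and mVenus was not called (edgeR adjusted p = 0.0764). The difference passed the test under 6 of 18 alternatives, among them without mVenus replicate 1 (0.12, edgeR adjusted p = 0.0384), without p16 replicate 3 (0.09, edgeR adjusted p = 0.046) and without p21 replicate 3 (0.11, edgeR adjusted p = 0.0485).

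Other genes of quinone and carbonyl reduction and other NRF2 targets moved in both directions. In the quinone and carbonyl list, 4 rose and 3 fell of 14 in p21 over mVenus, 5 rose and 7 fell in p16 over mVenus, and 3 rose and 7 fell with Torin2 over p16. Among 10 other targets, 2 rose and 4 fell, 3 rose and 5 fell, and 4 rose and 3 fell in the same comparisons, where 56.4%, 63.7% and 59.3% of all tested genes were called. ABCC2, an exporter of glutathione conjugates, had 22.1, 21.5 and 20.0 CPM in p21, 13.7, 14.3 and 13.4 CPM in p16 with Torin2, 135.3, 137.7 and 124.1 CPM in p16, and 14.5, 17.2 and 18 CPM in mVenus. It rose 8.03-fold in p16 over mVenus (3.0 ± 0.07, edgeR adjusted p = 7.64e-19) and fell 9.60-fold with Torin2 against p16 (-3.26 ± 0.07, edgeR adjusted p = 1.07e-18). ALDH3A1, an aldehyde dehydrogenase, had the same high group, at 3.42 ± 0.220 CPM in p21, 5.39 ± 0.974 CPM in p16 with Torin2, 18.3 ± 0.376 CPM in p16 and 2.52 ± 0.141 CPM in mVenus. AKR1C1, an aldo-keto reductase, averaged 8.14 ± 0.467 CPM in p21, 3.53 ± 0.735 CPM in p16 with Torin2, 6.76 ± 0.0767 CPM in p16 and 2.82 ± 0.402 CPM in mVenus, and its value is uncertain because reads can fit its close copies. EPHX1, an epoxide hydrolase, fell by 0.80 ± 0.05 in p16 against mVenus and by a further 0.71 ± 0.05 with Torin2 against p16, and ABCC1, another conjugate exporter, fell by 1.05 ± 0.14 in p16 against mVenus (edgeR adjusted p = 1.35e-06). ABCC4, a further exporter of the family, rose by 0.82 ± 0.06 with Torin2 over p16. SLC6A6, the taurine transporter, fell by 1.45 ± 0.09 with Torin2 against mVenus, to 9.21 ± 0.605 CPM with Torin2 against 25.1 ± 0.619 CPM in mVenus.

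NADPH feeds NQO1, TXNRD1 and glutathione reductase. Of 6 tested genes of NADPH supply, 2 rose and 4 fell in p21 over mVenus, 3 rose and 3 fell in p16 over mVenus, and 1 rose and 4 fell with Torin2 over p16, or 6, 6 and 5 called of 6, beside 56.4%, 63.7% and 59.3% of all tested genes. TKT, transketolase of the pentose phosphate pathway, fell by 0.57 ± 0.04 in p21 against mVenus but rose by 0.21 ± 0.03 with Torin2 over p16.

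HMOX1 fell in each group with p16 or p21. HMOX1 (chromosome 22, 35380361 to 35394214, plus strand), which cleaves haem and releases iron, had 3.23, 2.10 and 3.19 CPM in p21, 1.95, 2.78 and 2.03 CPM in p16 with Torin2, 2.74, 2.24 and 1.49 CPM in p16, and 8.44, 8.47 and 8.06 CPM in mVenus. The mVenus libraries stood above all others, and the other groups overlapped. It fell 2.94-fold in p21 (-1.56 ± 0.18, edgeR adjusted p = 3.52e-07), 3.82-fold in p16 (-1.93 ± 0.19, edgeR adjusted p = 1.93e-08) and by 1.88 ± 0.19 with Torin2 (edgeR adjusted p = 2.47e-08), each against mVenus. These levels rest on 22 to 161 counts a library. The difference of 0.38 ± 0.22 between p21 and p16 was not called (edgeR adjusted p = 0.163), but it was 0.59 without p16 replicate 1 (edgeR adjusted p = 0.0491) and 0.56 without p21 replicate 2 (edgeR adjusted p = 0.0464). In RNA from whole cultures, fewer cells with the transcript and less transcript in each cell cannot be told apart, here as for the other genes.

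Other genes of haem and iron moved in both directions. Of 7 tested genes, 4 rose and 1 fell in p21 over mVenus, 3 rose and 2 fell in p16 over mVenus, and 4 rose and 1 fell with Torin2 over p16. In all 5, 5 and 5 of 7 were called, beside 56.4%, 63.7% and 59.3% of all tested genes. FTL, the ferritin light chain, had 446.6, 446.8 and 453.2 CPM in p21, 489.4, 513.4 and 495.4 CPM in p16 with Torin2, 274.9, 283.8 and 267.0 CPM in p16, and 362.1, 359.6 and 354.7 CPM in mVenus. It was lowest in p16, falling by 0.38 ± 0.03 against mVenus, and rose by 0.86 ± 0.03 with Torin2 over p16 (edgeR adjusted p = 1.14e-14). FTH1, the heavy chain, went the other way in p16, with a rise of 0.45 ± 0.03 over mVenus (edgeR adjusted p = 2.1e-10), though 62.4% of its exonic bases overlap BEST1. SLC48A1, which moves haem into the cytosol, rose by 1.29 ± 0.08 in p21, by 1.16 ± 0.09 with Torin2 and by 0.63 ± 0.09 in p16, each over mVenus, and averaged 37.8 ± 0.884 CPM in p21, 34.6 ± 2.32 CPM in p16 with Torin2, 23.9 ± 2.75 CPM in p16 and 15.5 ± 1.72 CPM in mVenus.

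SOD2, the mitochondrial superoxide dismutase, covered the widest range of the 10 genes, 4.37-fold between its highest and lowest group means. SOD2 (chromosome 6, 159669057 to 159762529, minus strand) had 781.7, 886.2 and 883.3 CPM in p21, 199.3, 193.1 and 190.9 CPM in p16 with Torin2, 333.4, 358.2 and 409.8 CPM in p16, and 254.3, 243.6 and 267.6 CPM in mVenus. No groups overlapped. It rose 3.33-fold in p21 over mVenus (1.74 ± 0.06, edgeR adjusted p = 1.48e-15) and 1.44-fold in p16 over mVenus (0.52 ± 0.06, edgeR adjusted p = 2.04e-07). With Torin2 it fell 1.89-fold against p16 (-0.92 ± 0.06, edgeR adjusted p = 7.65e-11), to below mVenus (-0.39 ± 0.06, edgeR adjusted p = 1.17e-05). Of its exonic bases 9.71% overlap other genes, ACAT2 and WTAP on the other strand among them, and the counting did not use strand. The annotation holds 2 gene identifiers under the name SOD2, and the span and counts given here join them. The main identifier ends at 159745186. How the counts divide between these identifiers was not tested.

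SOD1 (chromosome 21, 31659622 to 31668931, plus strand), the cytosolic enzyme, had 165.9, 172.0 and 173.8 CPM in p21, 125.7, 121.5 and 113.2 CPM in p16 with Torin2, 139.8, 139.6 and 155.8 CPM in p16, and 167.5, 171.1 and 174.2 CPM in mVenus. Here p21 and mVenus overlapped and differed by 0.00 ± 0.05 (edgeR adjusted p = 0.969), and both p16 groups were lower. SOD1 fell by 0.24 ± 0.05 in p16 against mVenus (edgeR adjusted p = 0.000151) and by 0.27 ± 0.05 with Torin2 against p16 (edgeR adjusted p = 5.44e-05). The ratio of SOD2 to SOD1 per unshared exonic base was 0.612 ± 0.0292 in p21, 0.199 ± 0.00698 in p16 with Torin2, 0.310 ± 0.0157 in p16 and 0.183 ± 0.00742 in mVenus. The p21 mean was 3.34 times the mVenus mean (two-sided exact permutation p = 0.1, the smallest possible). Per base SOD2 lay below SOD1 in every group, but this depends on the divisor, which takes in every annotated exon. That divisor was 16438 bases for SOD2, with both gene identifiers of that name joined, and 2019 for SOD1. Undivided, SOD2 lay above SOD1, at 850.4 against 170.6 CPM in p21 and 255.1 against 170.9 CPM in mVenus.

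CAT, catalase, which removes hydrogen peroxide, averaged 59.2 ± 2.93 CPM in p21, 29.1 ± 0.759 CPM in p16 with Torin2, 45.4 ± 1.36 CPM in p16 and 56.2 ± 3.03 CPM in mVenus, and fell by 0.64 ± 0.06 with Torin2 against p16 (edgeR adjusted p = 7.72e-09). GPX4, which reduces lipid peroxides with glutathione, rose by 0.44 ± 0.04 in p21, 0.75 ± 0.04 with Torin2 and 0.53 ± 0.04 in p16, each over mVenus, where it averaged 158.4 ± 1.84 CPM. Among 14 tested glutathione peroxidases and transferases, 8 rose and 2 fell in p21 over mVenus, 7 rose and 7 fell in p16 over mVenus, and 1 rose and 10 fell with Torin2 over p16. The called genes were 10, 14 and 11 of 14, beside 56.4%, 63.7% and 59.3% of all tested genes. The transferase GSTO1 fell by 0.63 ± 0.04 in p21 and 0.72 ± 0.05 in p16 against mVenus, whereas GSTA4 rose by 0.99 ± 0.14 in p21 over mVenus and fell by 0.77 ± 0.17 in p16 against mVenus.

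**Figure D3:**
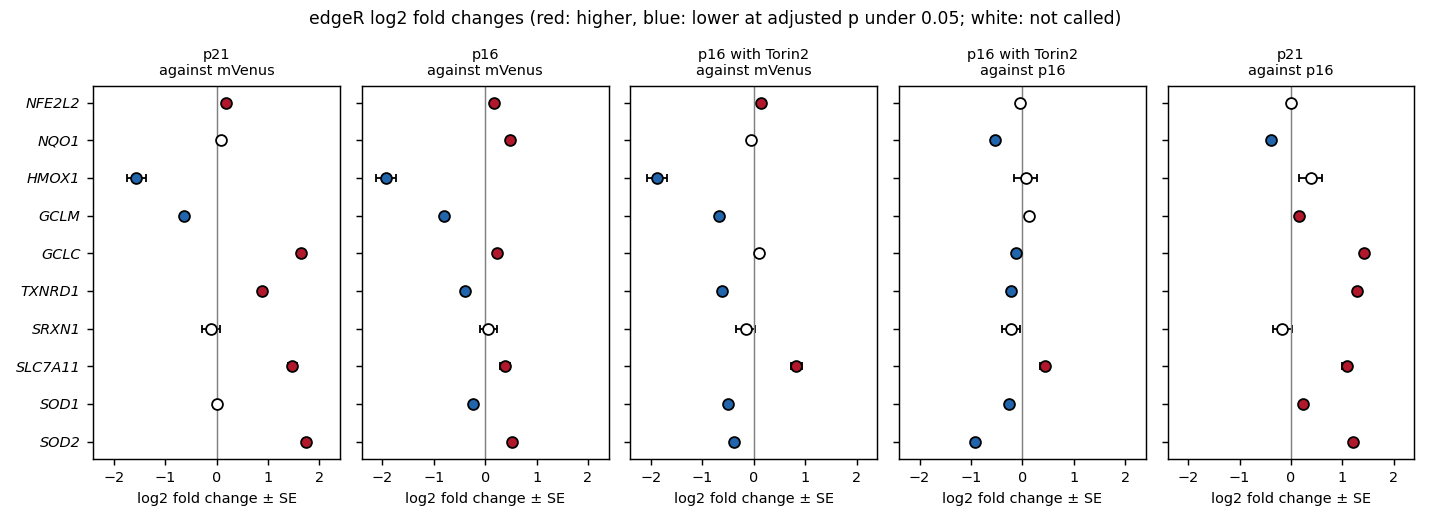
Log2 fold change ± SE (horizontal axes) of each of the 10 genes in the 5 comparisons, from the edgeR fit; red points were higher and blue points lower at an adjusted p under 0.05, and white points were not called. GCLC, SLC7A11 and SOD2 lie between 1.47 and 1.74 for p21 against mVenus, and HMOX1 lies at -1.56 or below in all 3 comparisons with mVenus.

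In p21 over mVenus, 5 of the 10 genes rose (NFE2L2, GCLC, TXNRD1, SLC7A11 and SOD2) and 2 fell (HMOX1 and GCLM), where 56.4% of all tested genes were called, 28.2% higher and 28.3% lower. The median log2 fold change was 0.14 over the 10 genes and -0.004 over all genes. In absolute size the median change was 0.77 over the 10 genes and 0.29 over all genes. Of 86 other tested genes of the pathway, 33 rose and 20 fell.

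In p16 over mVenus, 5 rose (NFE2L2, NQO1, GCLC, SLC7A11 and SOD2) and 4 fell (HMOX1, GCLM, TXNRD1 and SOD1), where 63.7% of all tested genes were called, 30.9% higher and 32.8% lower. The median absolute change of 0.40 was near the 0.35 of all genes. Of the 86 other genes, 39 rose and 33 fell. Both comparisons with mVenus use the same mVenus libraries, so their shared directions are not independent.

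More of the 10 genes fell than rose with Torin2. Against p16, 1 rose (SLC7A11) and 5 fell (NQO1, GCLC, TXNRD1, SOD1 and SOD2), where 59.3% of all tested genes were called, 30.3% higher and 29% lower, with a median of -0.17 over the 10 genes and 0.023 over all. The fall of GCLC was small (-0.12 ± 0.05, edgeR adjusted p = 0.0341), the groups overlapped, and it was lost without p16 replicate 3 (-0.08, edgeR adjusted p = 0.148) and without replicate 2 (-0.10, edgeR adjusted p = 0.148) or 3 (-0.09, edgeR adjusted p = 0.162) of p16 with Torin2. GCLM, at 0.13 ± 0.06, was not called (edgeR adjusted p = 0.0905) but was without p16 replicate 3 (0.19, edgeR adjusted p = 0.0178). Of the 86 other genes, 23 rose and 41 fell.

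Set against mVenus, p16 with Torin2 had 2 genes that rose (NFE2L2 and SLC7A11) and 5 that fell (HMOX1, GCLM, TXNRD1, SOD1 and SOD2), where 67.4% of all tested genes were called, 31.2% higher and 36.1% lower. SLC7A11 rose by 0.83 ± 0.10 and TXNRD1 fell by 0.62 ± 0.04. GCLC, at 0.10 ± 0.05, was not called (edgeR adjusted p = 0.0766), but was without p16 replicate 3 (0.10, edgeR adjusted p = 0.0449) and without replicate 2 (0.13, edgeR adjusted p = 0.0488) or 3 (0.13, edgeR adjusted p = 0.0339) of p16 with Torin2. This comparison changes both the transgene and the drug.

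The direct comparison of the inhibitors had 6 of the 10 genes higher in p21 than in p16 (GCLM, GCLC, TXNRD1, SLC7A11, SOD1 and SOD2) and 1 lower (NQO1), where 54.3% of all tested genes were called, 27.2% in each direction. GCLC differed by 1.42 ± 0.05, SOD2 by 1.21 ± 0.06 and SLC7A11 by 1.08 ± 0.09. GCLM was the weakest call (0.16 ± 0.06, edgeR adjusted p = 0.0352, groups overlapping), and it was lost without p16 replicate 1 (edgeR adjusted p = 0.108) or 2 (edgeR adjusted p = 0.145) and without p21 replicate 2 (edgeR adjusted p = 0.0886) or 3 (edgeR adjusted p = 0.133). Among the 86 other genes, 28 were higher and 28 lower.

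**Figure D4:**
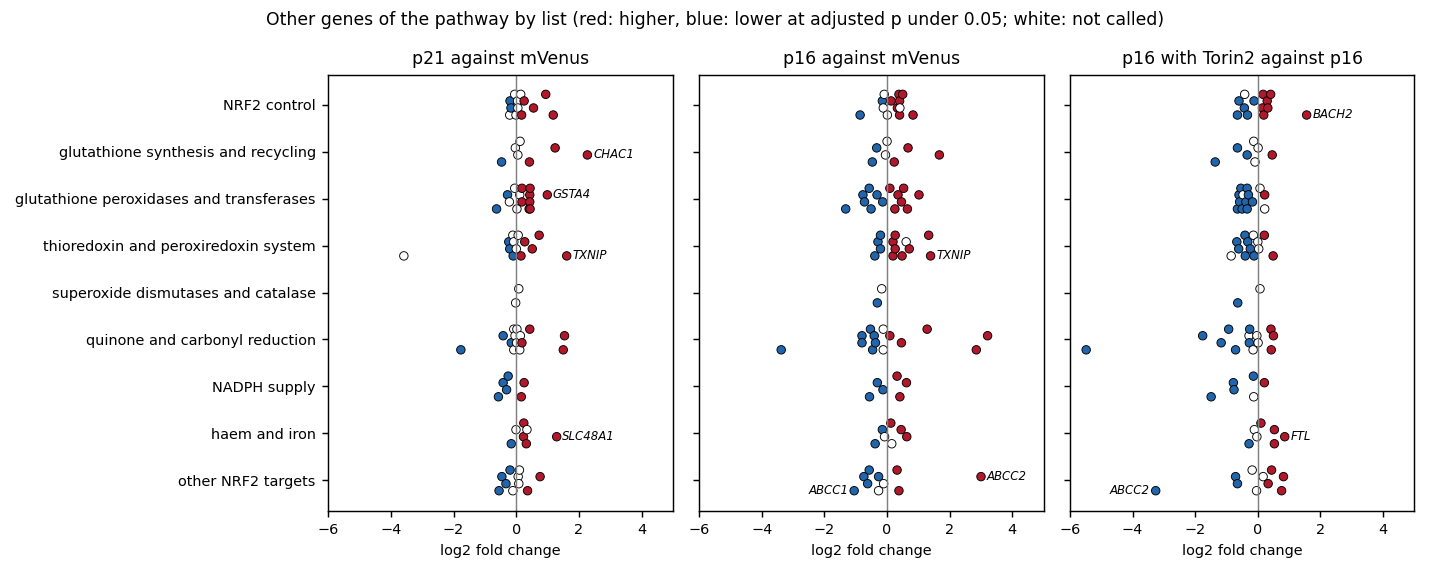
Log2 fold changes (horizontal axes) of the 86 other tested genes of the pathway, 1 point a gene, in 9 lists; red points were higher and blue points lower at an edgeR adjusted p under 0.05, white points were not called, and vertical position within a list has no meaning. ABCC2 lies at 3.0 for p16 against mVenus and at -3.26 for p16 with Torin2 against p16, and CHAC1 at 2.27 for p21 against mVenus.

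Apart from the undivided levels of SOD2 and SOD1 given above, levels of different genes are compared only per kilobase of unshared exon. In p21 the order was SOD1 (84.5 CPM per kilobase), TXNRD1 (69.3), NQO1 (65.5), SOD2 (51.7), GCLC (36.2), NFE2L2 (33.8), SRXN1 (9.12), GCLM (6.67), SLC7A11 (5.87) and HMOX1 (1.18). In mVenus it was SOD1 (84.7), NQO1 (61.7), TXNRD1 (37.3), NFE2L2 (29.8), SOD2 (15.5), GCLC (11.6), GCLM (10.4), SRXN1 (10.0), HMOX1 (3.46) and SLC7A11 (2.10). SOD1 headed both orders, and GCLC and GCLM, near each other in mVenus, lay far apart in p21. The divisor takes in every annotated exon, used or not, so the order of genes within a group depends on the annotation. Besides NFE2L2, SRXN1 and SOD2, overlapping genes share 17.7% of the exonic bases of NQO1, 8.97% of SLC7A11 and 6.20% of GCLC, and 0% of HMOX1, GCLM, TXNRD1 and SOD1.

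The 10 genes did not share a single pattern over the 12 libraries. Likeness was measured as the root mean square difference of log2 CPM after centring each gene. Genes were not scaled, so the value reflects the size of a gene's changes as well as their order, and it is used here only for genes that varied widely. GCLC lay at 0.297 from SOD2, 0.310 from TXNRD1 and 0.349 from SLC7A11. For genes whose group means spanned at least 1 on the log2 scale, the 3 nearest tested genes were CASC19, SVEP1 and CDH13 for GCLC (0.117, 0.122 and 0.134), PROS1, SMPD1 and IL18R1 for TXNRD1 (0.127, 0.136 and 0.138), TCEAL4, CYP1B1 and CCND1 for SLC7A11 (0.170, 0.173 and 0.175), AOX1, CYP4F11 and GHR for SOD2 (0.157, 0.159 and 0.185), and MT1L, GMNN and SPHK1 for HMOX1 (0.222, 0.236 and 0.247). None of these nearest genes was one of the 10. With only 3 taken from 10267 or 10268 genes, this was likely whatever the 10 genes did. It therefore does not bear on whether they share a pattern. HMOX1 and SRXN1 could not appear, as both lay below the mean CPM required of a nearest gene.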

How the data were processed

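Poly(A) RNA from MCF10-A cells (passages 12-15) was made into 12 stranded libraries (KAPA), per the labels. Raw counts were deposited by the authors per gene name, from featureCounts 1.6.3 over GENCODE 29 exons with no strand or multimapping option, per the file headers, so reads in bases shared by genes stayed unassigned. The submitters' processing notes name FastQC 0.11.3, HISAT2, Subread, DESeq2 and the build GRCh38.p7. The authors also deposited 3 tables of log2 fold changes with adjusted p-values (p16 and p21 over mVenus, and Torin2 over p16). In the authors' deposited tables all 10 genes had the same call as here, with log2 values within 0.024.

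Counts were filtered (filterByExpr, 14504 genes), TMM-scaled and tested with the two-sided quasi-likelihood test of edgeR 4.0.16 (R 4.3.3), with all 12 libraries in 1 fit (8 residual degrees of freedom, common biological coefficient of variation 3.94%). Adjusted p is Benjamini-Hochberg over all tested genes, called at 0.05, and the SE is the log2 fold change divided by the square root of F. The 5 comparisons share libraries. Ratios of 2 genes used exact permutation tests (scipy 1.17.1). The code was tested on simulated counts.

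The 10 genes and 9 lists (97 other genes, 86 tested) were chosen with earlier results of these data known. Of the 97, the rule names 16 fixed genes, 1 of which is not reported here, and, per comparison, the 2 largest called rises and falls with at least 5 CPM in the higher group; the nearest genes have a mean of at least 5 CPM. No 2 libraries of a group agreed within counting error (pairwise chi-square over its degrees of freedom, 1.65 to 6.40). Alternatives were the Wald test of DESeq2 1.42.0, 2 other scalings, no filter on low counts, a replicate block, a fit of only the groups compared, and each library left out. Figures were drawn with matplotlib 3.10.9.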

Additional observations from a re-analysis of the deposited data

How the results depend on the processing

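Over 18 alternatives, the 10 genes in 5 comparisons gave 900 values, of which 872 kept their side of the threshold, 12 were no longer called and 16 became called. Among called values 0 changed sign, while 22 values that were not called did, for SRXN1, SOD1, NFE2L2 and HMOX1, whose log2 fold changes there were at most 0.16 in size under the reported settings. The genes called higher with Torin2 over p16 numbered 2 under upper quartile factors, against 1 under TMM, and 1 to 2 when single libraries were left out. Those higher in p16 with Torin2 over mVenus numbered 1 to 3 when single libraries were left out, against 2 with all. The other counts of called genes stayed within 1 of their value. The calls that changed were NQO1 (p21 against mVenus), GCLM and GCLC (Torin2 against p16), NFE2L2 and GCLC (Torin2 against mVenus), and HMOX1 and GCLM (p21 against p16), and the cause was not tested. GCLC with Torin2 against p16 was also lost under upper quartile factors (adjusted p = 0.106) and with only the 2 groups (adjusted p = 0.0672), and GCLM in p21 against p16 without the low-count filter (adjusted p = 0.0598) and by the DESeq2 Wald test (adjusted p = 0.0857). Among 2607 values of the other named genes, 74 lost and 18 gained a call, 0 called values changed sign and 23 not called did. Those reported here with lost calls were CHAC1 in p16 against mVenus, MAFG, SQSTM1, TXN, ALDH3A1, ABCC1 and ABCC4 in p21 against mVenus, FTH1 and GSTA4 with Torin2 against p16, KEAP1, ABCC2, CHAC1 and TKT with Torin2 against mVenus, and KEAP1, GPX4 and SLC6A6 in p21 against p16. Besides left-out libraries, the SQSTM1 call was lost with a replicate block (1.21, edgeR adjusted p = 0.0505) and by the DESeq2 Wald test (1.19, adjusted p = 0.105). A replicate block gave the same counts for the 10 genes, 5 higher and 4 lower in p16 against mVenus, 5 and 2 in p21 against mVenus, 1 and 5 with Torin2 against p16, 2 and 5 with Torin2 against mVenus, and 6 and 1 in p21 against p16. Same-numbered libraries showed no strong deviation in the same direction (r from -0.351 to 0.124 over 10270 genes), so the numbers were not taken as pairs. Between p16 with Torin2 and p16, the deviations ran in opposite directions for replicate 1 (r = -0.351) and replicate 3 (r = -0.285), but not for replicate 2 (r = 0.121). The source of these opposite deviations was not tested. Libraries with different numbers were not compared, so a batch shared across numbers was not tested. Scalings moved the median of all genes to between -0.032 and 0.054. The ratios, whose left-out libraries were chosen after seeing the data, kept their direction, and that of GCLC to GCLM in p21 over mVenus was 4.76 to 4.96. Depth limits HMOX1 and SRXN1, and the unstranded counting limits genes that overlap others.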
